A study of Mus musculus with 1479 samples.

Results

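Fibrillar collagen chains are the building blocks of the banded collagen fibrils that carry load in connective tissue, and 10 of the genes that encode them were followed here across single cells of the mouse bladder. The 10 genes, Col1a1, Col1a2, Col2a1, Col3a1, Col5a1, Col5a2, Col5a3, Col11a1, Col24a1 and Col27a1, were taken by name from the 46517 gene rows of a table of read counts, and Col11a2, the remaining fibrillar chain gene, is given beside them. The table holds 1479 Smart-seq2 libraries, each from 1 cell sorted from adult male mice of 10 to 20 weeks, and every cell carries a cluster label from 1 to 11. In the study's naming, cluster 10 holds vascular mural cells, cluster 5 (76 cells) holds fibroblasts that lie just under the urothelium, cluster 4 was left undefined, and the others are fibroblasts. Clusters 1 to 9 and 11 are called the fibroblast clusters below (1354 cells, the remaining cells of the 1479 being mural), and without cluster 5 the other fibroblast clusters (1278 cells).

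The cells came from 5 mouse lines, and no agent or disease was part of the design. PdgfrbGFP (810 cells) carries a GFP transgene under Pdgfrb control, PdgfraGFP carries a nuclear GFP at the Pdgfra locus, Cspg4dsRED has a red reporter under the Cspg4 promoter and Acta2GFP a GFP under the Acta2 promoter. C57BL6 mice (190 cells) carry no reporter, and their cells were caught with antibodies against the PDGF receptors. Each reporter therefore sets which cells were caught. Cells that stained for CD31 were left out of every sort, and elastase was added to the dissociation for Acta2GFP only. The labels name no animal, so cells were summed or averaged per line, and the line was the unit of replication. The p-values measure how far the difference between classes within a line varies over lines, and lines also differ in sort. In the edgeR tests this spread was in part shared over all genes. For cluster 5 against cluster 10, and for clusters 2, 4, 9 and 11 against the rest, it was pooled completely. There the p-values do not measure the spread of a single gene over lines. The 5 lines share 6 plates: part of the PdgfrbGFP cells lay on the plate of Acta2GFP and part of the Cspg4dsRED cells on that of PdgfraGFP, so that the lines are not wholly separate in plate. No PdgfraGFP cell was in cluster 10 and no Acta2GFP cell in cluster 5. C57BL6 gave 3 cells to cluster 10 and Cspg4dsRED gave 3 cells to cluster 5.

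A fibrillar collagen molecule is a triple helix of chains in which glycine recurs at a fixed short spacing. The most common one, type I collagen, pairs α1 chains (Col1a1) with an α2 chain (Col1a2), whereas type III collagen is made of identical chains (Col3a1) and is common in distensible organs such as the bladder. Type V collagen (Col5a1, Col5a2, Col5a3) and type XI collagen (Col11a1, Col11a2) sit inside the fibrils and help to start them and to set their width, type II collagen (Col2a1) is the collagen of cartilage, and types XXIV (Col24a1) and XXVII (Col27a1) form a separate branch of the family with a shorter helix. Chains are hydroxylated and folded in the endoplasmic reticulum, trimmed of their propeptides outside the cell and then cross-linked.

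The shared architecture can be read in the genes. In the longest annotated transcript the unbroken run of glycine triplets made up 69.8% of the coding codons in Col1a1, 74.1% in Col1a2 and 70.5% in Col3a1, but 37.4% in Col24a1 and 35.3% in Col27a1. These shares count the longest run only, and Col24a1 and Col27a1 each hold 1 other run of at least 20 triplets, whereas Col1a1, Col1a2 and Col3a1 hold none. In each of the 10 genes, every exon that lies wholly in the run had a length that is a multiple of 9 bases, and exons of 54 bases were the most frequent (21 in Col1a1, 31 in Col5a3 and Col11a1). The first 54-base exon of the run is printed below for the 6 chains on which the results turn (GRCm38 genome, GENCODE M21 annotation, coding strand, 5′ to 3′, with the glycine codon that opens each triplet in capitals; a glycine codon elsewhere in a triplet is left in lower case). Each is a coding exon.
Col1a1, exon 8 of 51, chr11:94939904-94939957, plus strand: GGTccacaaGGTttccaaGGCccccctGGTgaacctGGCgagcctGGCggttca
Col1a2, exon 8 of 52, chr6:4515481-4515534, plus strand: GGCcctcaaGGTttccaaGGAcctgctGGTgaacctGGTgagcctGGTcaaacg
Col3a1, exon 6 of 51, chr1:45325360-45325413, plus strand: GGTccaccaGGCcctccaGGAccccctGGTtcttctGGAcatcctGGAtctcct
Col5a1, exon 15 of 66, chr2:27965251-27965304, plus strand: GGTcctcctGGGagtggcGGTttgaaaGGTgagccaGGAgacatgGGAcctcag
Col5a2, exon 10 of 54, chr1:45422386-45422439, minus strand: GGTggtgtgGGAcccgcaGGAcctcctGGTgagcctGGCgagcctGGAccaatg
Col11a1, exon 15 of 67, chr3:114108281-114108334, plus strand: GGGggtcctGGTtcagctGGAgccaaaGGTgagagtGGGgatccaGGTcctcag
Each exon spells 6 glycine triplets. The printed exons were compared letter by letter, with no alignment. The Col1a1 and Col1a2 exons were identical at 42 of 54 positions, Col1a1 and Col3a1 at 35, and Col1a1 and Col5a1 at 24. Each exon is the first of its length in its own run, and exons were not matched as counterparts between genes. The glycine codons open with the same letters in every pair. These counts therefore do not measure how alike the chains are. How reads that match several chains were counted is not given in the sources used here.

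The genes also differ before their start sites. RefSeq promoter windows (GRCm38.p6) matched 7 of the 10 genes, and Col1a1, Col2a1 and Col5a2 had no entry. The last 150 bases before the RefSeq start are shown for the 2 most abundant chains with an entry and for Col11a1, the scarce chain with the most reads, with CCAAT or TATAAA, on either strand, in capitals.
Col1a2, chr6:4505468-4505617, plus strand: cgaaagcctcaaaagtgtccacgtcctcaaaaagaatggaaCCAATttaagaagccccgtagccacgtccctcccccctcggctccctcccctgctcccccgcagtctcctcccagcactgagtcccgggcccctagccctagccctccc
Col3a1, chr1:45311388-45311537, plus strand: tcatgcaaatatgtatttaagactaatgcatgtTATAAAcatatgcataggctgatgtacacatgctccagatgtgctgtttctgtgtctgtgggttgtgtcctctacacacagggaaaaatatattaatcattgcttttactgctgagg
Col11a1, chr3:114030390-114030539, plus strand: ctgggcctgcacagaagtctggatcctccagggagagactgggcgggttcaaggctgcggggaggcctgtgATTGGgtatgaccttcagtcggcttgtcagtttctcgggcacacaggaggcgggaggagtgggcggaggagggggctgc
Over the 250 bases before the start, the GC content was 62% for Col1a2 and 35.2% for Col3a1. CCAAT lay at -109 in Col1a2 and its reverse form at -79 in Col11a1, and TATAAA at -117 in Col3a1. Of 32851 promoter windows of that length, 33.8% held CCAAT and 12.4% held TATAAA on either strand, so that a match is a description of the letters only. The RefSeq start of Col1a2 lies inside the gene as GENCODE M21 has it, from base 4504814 of chromosome 6, so on that annotation the stretch shown for Col1a2 is not before the gene.

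Depth set how far each chain could be followed. Cells held 50276 to 1446059 reads in all, with a median of 214893, and 6 cells had fewer than 50000 reads of mouse genes. The median was 130406 in cluster 10 and 261652 in cluster 5. The 7 fibroblast markers were all detected in each fibroblast cluster, and the 9 mural markers summed to 10595 reads per 500000 reads in cluster 10 (mean of 4 lines, 8133 to 12820) against 144.7 in the fibroblast clusters (94.2 to 176.9), so the mural and fibroblast labels matched their markers, with the departures in clusters 4 and 5 given here and beside the results of cluster 5. In cluster 4, which the study left undefined, the fibroblast markers summed to 7188 against 10941 over all fibroblast clusters, and against the other fibroblast clusters without cluster 5 Fbln1 (-3.69 ± 0.43) and Loxl1 (-2.82 ± 0.64, not called by DESeq2 or limma) were called lower and the mural marker Cspg4 (4.28 ± 1.02) higher. These calls rest on 2 lines and 21 cells of cluster 4, in a fit that pooled the spread over all genes completely. The 6 chondrocyte markers summed to 90.5 (60.8 to 120.2 in 2 lines) against 3.19 in the other fibroblasts, with Acan, Matn1, Matn3 and Col9a1 at 0 in cluster 4. Sox9, the only one of them tested, passed the filter on low counts through cluster 4 and so had to differ, and nothing is read from its call. Their part in the collagen levels of cluster 4 was not tested.

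Collagen I and III chains took most of the fibrillar collagen reads. The 10 genes took 2.13% ± 0.55 (SD, n = 5 lines) of the mouse reads of a fibroblast, 3.88% ± 1.04 (n = 4) in cluster 5 and 0.225% ± 0.152 (n = 4) in cluster 10, and the highest single cell, in cluster 5, gave them 8.71%. The next shares are of the summed level of the members per kilobase of the longest transcript, not of their reads. In fibroblasts they were 35.5% ± 1.5 for Col1a1, 33.8% ± 1.6 for Col1a2 and 26.7% ± 2.2 for Col3a1. For the type V chains they were 2.22% ± 0.21 (Col5a2), 1.35% ± 0.23 (Col5a1) and 0.366% ± 0.242 (Col5a3). Per kilobase of the longest transcript, which allows genes to be compared, the mean level in fibroblasts was 667 reads per 500000 reads for Col1a1, 637 for Col1a2, 496 for Col3a1, 41.1 for Col5a2, 25.4 for Col5a1 and 6.13 for Col5a3. Col11a1 reached 0.707, Col27a1 0.580 and Col24a1 0.286. The ranges over lines of Col1a1, Col1a2 and Col3a1 overlap. Divided by all exon bases in place of the longest transcript, the level was 603 for Col1a1, 274.1 for Col1a2, 281.2 for Col3a1 and 28.4 for Col5a2, so the type I and III chains stood well above the type V chains on both scales.

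**Figure D1:**
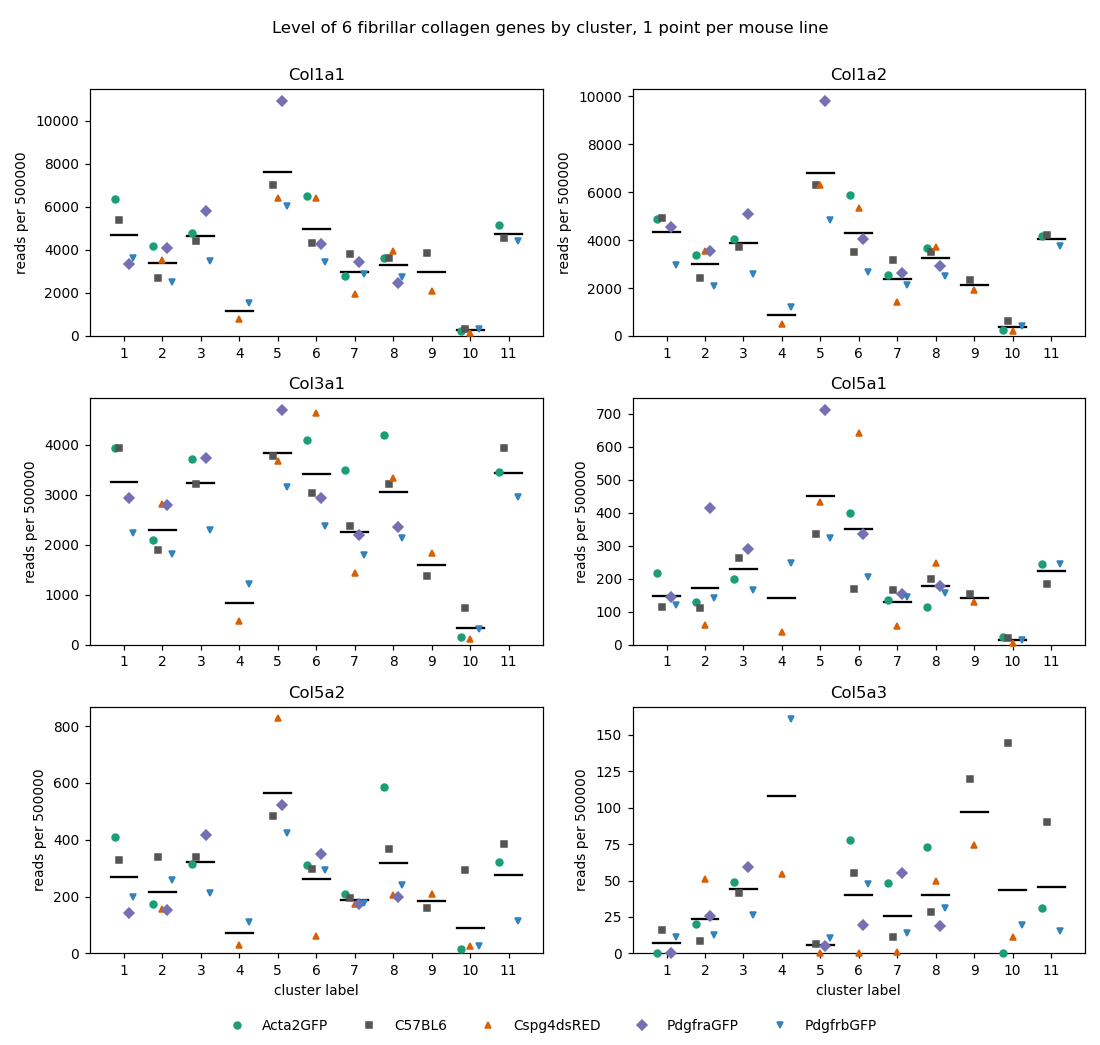
Mean level (reads per 500000 mouse reads of a cell, linear axes from 0) of 6 fibrillar collagen genes in clusters 1 to 11, with 1 point per mouse line with at least 3 cells in the cluster and a bar at the mean over lines. Col1a1, Col1a2 and Col3a1 are highest on average in cluster 5 and lowest in cluster 10, while Col5a3 stands at 5.50 in cluster 5 and has its widest range between lines in cluster 10.

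The first comparison asked how much less fibrillar collagen the mural cells use than the fibroblasts. Col1a1, Col1a2, Col3a1, Col5a1 and Col5a2 were all lower in cluster 10, by log2 fold changes of -3.07 to -3.83, and none of the members was called higher. Col1a1, the α1 chain of type I collagen, had a mean level of 251.2 reads per 500000 in Acta2GFP, 323.7 in C57BL6, 146.2 in Cspg4dsRED and 331.4 in PdgfrbGFP mural cells. In fibroblasts of the same lines it had 4814, 4340.4, 2396 and 3346. Every mural value lay under every fibroblast value, and the log2 fold change was -3.80 ± 0.28 (SE, edgeR quasi-likelihood test with line as a block, adjusted p = 3.49e-08). Col1a2, the α2 chain, stood at 229.7, 639.7, 202.3 and 399.5 in mural cells against 4047, 3738, 2150.2 and 2636 in fibroblasts in the same order of lines. Its groups did not overlap either, with a fold change of -3.10 ± 0.31 (adjusted p = 1.93e-06). Col3a1, the chain of type III collagen, had 148.7, 741, 118.3 and 307.6 in mural cells and 3639, 3004, 1970.2 and 2207 in fibroblasts. Its log2 fold change was -3.38 ± 0.40 (adjusted p = 1.47e-05), and the highest mural value again belonged to C57BL6, which rests on 3 cells.

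Of the 3 type V chains, Col5a1 and Col5a2 were called lower in mural cells and Col5a3 was not; the difference between the chains was not tested. Col5a1, which is needed for fibril assembly, had 22.3 in Acta2GFP, 20.9 in C57BL6, 5.31 in Cspg4dsRED and 13.9 in PdgfrbGFP mural cells, against 214.8, 213.6, 139.5 and 169.6 in fibroblasts. It fell by 3.83 ± 0.67 on the log2 scale (adjusted p = 0.001), and the groups did not overlap. Col5a2, its usual partner chain, had 15.5, 292.9, 24.3 and 26.8 in mural cells and 334.4, 319.1, 192.9 and 232.3 in fibroblasts. Its fall of 3.07 ± 0.73 passed the test (adjusted p = 0.0132), but the C57BL6 value reached the fibroblast range. With the median gene set at 0 the change of Col5a2 was -2.26 (adjusted p = 0.0703), and without line as a replicate block it was -1.76 (adjusted p = 0.243), so that under these settings the call was lost. Col5a3, the least common type V chain, had 0.171, 144.4, 11.4 and 19.2 in mural cells and 42.2, 31.5, 59.1 and 26.3 in fibroblasts. The C57BL6 value was far above the others, and no difference was called (-1.50 ± 1.38, adjusted p = 0.644). With a line left out its fold change ran from -2.72 (without C57BL6) to -0.29 (without Acta2GFP), and it was not called in any of these fits.

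Of the 10 members 8 had enough reads to be tested in this comparison, and 5 of them were called lower (adjusted p under 0.05 and a log2 fold change of at least 2 in size), against 6.06% of the 13861 genes tested called lower and 8.34% called in either direction. The median change was -3.24 over the members tested (-3.10 without Col24a1) and -0.81 over all genes tested. Relative to that median gene, Col1a1 was at -2.99, Col1a2 at -2.28, Col3a1 at -2.57, Col5a1 at -3.02 and Col5a2 at -2.26. Col24a1 (-4.03 ± 1.43, adjusted p = 0.0938) and Col27a1 (0.59 ± 1.60, adjusted p = 0.905) were not called. Col24a1 had 3 reads in all mural cells, so it entered the test through the fibroblasts, had to come out lower and has a fitted fold that gives no size. Without PdgfrbGFP it was at -7.58 (adjusted p = 0.142), and without each other line between -3.85 and -3.40. The same 5 members were called with each of the 4 lines left out in turn. The clusters were drawn by the study from the same values, so these tests describe how well the differences repeat over lines. All 7 fibroblast markers were also called lower in cluster 10. Their sum was 693 reads per 500000 in cluster 10 (208.9 to 1261 by line) against 10941 (9043 to 13080) in the fibroblast clusters, with no marker at 0. The mural mean was 7.07% of the fibroblast mean for Col1a1 (5.22 to 9.91 by line), 11.7% for Col1a2 (5.68 to 17.1), 12.2% for Col3a1 (4.08 to 24.7), 8.46% for Col5a1 (3.80 to 10.4) and 33.3% for Col5a2 (4.65 to 91.8). Without C57BL6, which has 3 mural cells, it was 7.35% for Col3a1 and 8.78% for Col5a2. Of the 7 fibroblast markers the proteoglycan gene Dcn was at 11.9% (1.99 to 32.7, and 6.70% without C57BL6), Pdgfra at 1.98% and the other 5 between 2.35% and 4.31%. The part of fibroblast RNA in the mural values was not tested.

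Counting cells gave a similar picture. After every cell was thinned at random to 50000 reads, Col1a1 was found in 88.8% of the mural cells (95% Clopper-Pearson interval 81.9 to 93.7, which covers counting error only), Col1a2 in 84% (76.4 to 89.9) and Col3a1 in 81.6% (73.7 to 87.96). In the 1348 fibroblasts with that depth the shares were 100%, 99.9% and 99.8%. Col5a1 was found in 24% (16.8 to 32.5) of mural cells and in 82.5% of the other fibroblasts, and Col5a2 in 32.8% and 88.5%. These shares pool the lines, and 65 of the mural cells are Cspg4dsRED, the line with the lowest shares. With all reads Col5a1 was found in 12.3% of mural cells in Cspg4dsRED, 41.7% in Acta2GFP, 71.1% in PdgfrbGFP and all 3 in C57BL6, against 65.9%, 92.3%, 95.7% and 94.2% of the other fibroblasts. For Col5a2 the mural shares were 24.6%, 50%, 75.6% and 66.7%, against 68.9%, 94.9%, 97.4% and 99.4%. Both were lower in mural cells in each line but C57BL6, where Col5a1 was not. The median Col1a1 level of a mural cell was 85.7 reads per 500000, the 90th percentile 601 and the highest 1679. Under 1% of the reads of mural cells went to these genes in each line.

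**Figure D2:**
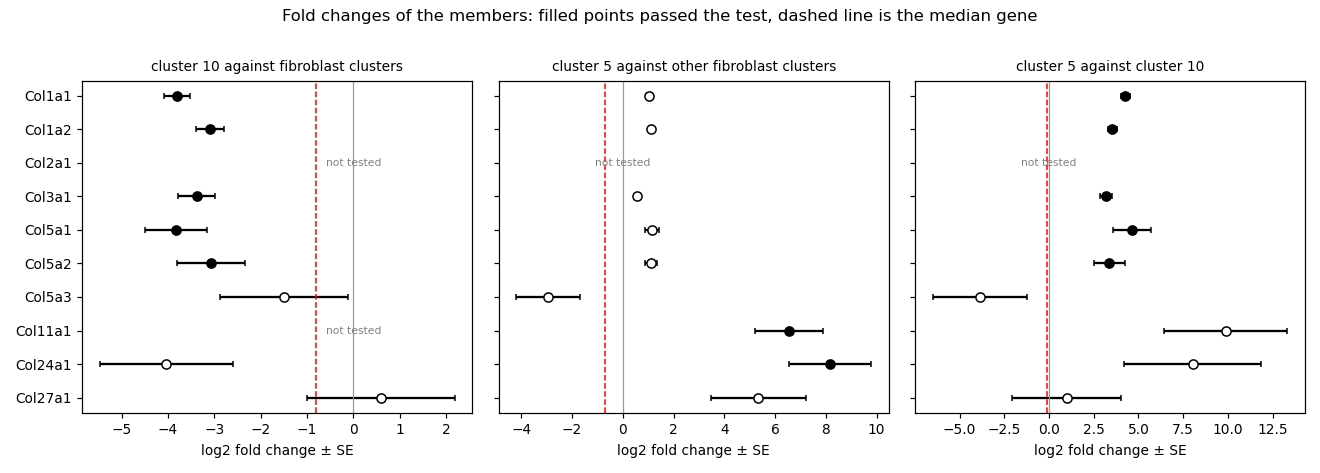
Fitted log2 fold change (horizontal axis, with its SE) of each member in 3 comparisons, from sums of reads per line. Filled points passed the test, open points did not, and the dashed line marks the median of all genes tested, which is -0.81, -0.69 and -0.11 from left to right. The points of Col24a1 in all 3 comparisons, and of Col11a1 where shown, give no size, since these genes are near 0 in a class of each comparison.

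Cluster 5 was at the other end. In these sub-epithelial fibroblasts Col1a1 and Col1a2 stood at about 2 times the level of the other fibroblasts. Fibroblast and mural markers moved too: Lum (-3.96 ± 0.46), Fbln2 (-3.25 ± 0.38) and Cd34 (-3.87 ± 0.42), 3 of the 7 fibroblast markers, were called lower, and Acta2 (3.16 ± 0.44), 1 of the 9 mural markers, was called higher. The fibroblast markers summed to 5328 reads per 500000 (4495 to 6761 by line) against 11312 (9358 to 13080.4) in the other fibroblasts, and the mural markers to 578 (435.03 to 753) against 116.1 (64.5 to 169.6), with no marker of either list at 0. Their part in the collagen differences was not tested. Col1a1 had 7028 reads per 500000 in C57BL6, 6395 in Cspg4dsRED, 10907 in the PdgfraGFP line and 6029 in the PdgfrbGFP line, against 4106, 2307, 3814 and 3213 in other fibroblasts of those lines. No value of cluster 5 overlapped with these pooled values. Single clusters did overlap with it: in cluster 6 Col1a1 was at 6417 in Cspg4dsRED and 6515 in Acta2GFP. The share of all genes without overlap is not given here. The log2 fold change of 1.05 ± 0.12 had an adjusted p of 0.00161 but lay under the fold of 2 on the log2 scale asked for a call. Col1a2 had 6315, 6306, 9808 and 4847 against 3513, 2058, 3519 and 2527, again with no overlap with the pooled values (1.10 ± 0.11, adjusted p = 0.00102). Col3a1 differed least of the type I and III chains, from 2936, 1932, 2679 and 2160.5 to 3779.9, 3680.2, 4705 and 3157, with a fold change of 0.58 ± 0.11 (adjusted p = 0.0444). With DESeq2 the adjusted p was 0.329 for Col1a1 and 0.298 for Col1a2, and without the Cspg4dsRED line 0.0668 and 0.0518.

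None of the 3 type V chains was called in cluster 5 by edgeR, and DESeq2 called Col5a3 lower. Col5a1 had 335.99, 433, 712 and 321.96 in cluster 5 and 202.97, 132.9, 264.4 and 162.1 in other fibroblasts, with a log2 fold change of 1.15 ± 0.28 (adjusted p = 0.104). Col5a2 had 483, 827, 523 and 424 against 304.8, 178.8, 241.6 and 222.8 (1.12 ± 0.25, adjusted p = 0.075). Both were higher in 4 of 4 lines without overlap with the pooled values, and neither passed the test. In single clusters Col5a1 reached 641 in cluster 6 (Cspg4dsRED) and Col5a2 587 in cluster 8 (Acta2GFP). Col5a3 went the other way in every line, with 6.17, 0, 5.31 and 10.5 in cluster 5 and 33.7, 60.4, 32.6 and 27.1 elsewhere, yet its log2 fold change of -2.94 ± 1.25 was not called by edgeR (adjusted p = 0.431) or limma (0.178) and was called by DESeq2 (-2.87, adjusted p = 0.0316). Pooled over lines, the thinned share of cells with a Col5a3 read was 18.4% (10.5 to 28.97) in cluster 5 and 31.1% (28.5 to 33.7) in other fibroblasts. With all reads the share was lower in cluster 5 in 3 lines, at 20%, 0 and 18.2% against 48.8%, 40% and 24% in C57BL6, Cspg4dsRED and PdgfraGFP, and not in PdgfrbGFP, at 58.3% against 55.6%.

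Col11a1, Col24a1 and Col27a1 were scarce chains whose mean level was higher in cluster 5 than in the other fibroblasts. Col11a1, the α1 chain of type XI collagen, had 19.9 reads per 500000 in the C57BL6 cells, 83.8 in those of Cspg4dsRED, 104.8 in PdgfraGFP and 76.5 for PdgfrbGFP, while the other fibroblasts of the 5 lines had 0.0393 to 2.91. Of its 3729 reads, 2952 lay in the 76 cells of cluster 5. Its log2 fold change was 6.54 ± 1.33 with an adjusted p of 0.0499, at the edge of the threshold. Col24a1 had 21.5, 20.95, 41.7 and 12.4 in cluster 5 and 0 to 0.726 in other fibroblasts, with a log2 fold change of 8.16 ± 1.62 (adjusted p = 0.0447). Col27a1 had 17.3, 23.3, 40.4 and 13.8 against 0.112, 9.58, 0.146 and 1.46, and was not called by edgeR (5.34 ± 1.87, adjusted p = 0.271) or limma (0.0846), while DESeq2 called it (5.43, adjusted p = 3.09e-05). For Col27a1 the lines of cluster 5 lay above those of the pooled other fibroblasts. In single clusters a line reached that range or above it, at 71.03 in cluster 8 and 31.3 in cluster 7. Col11a1 and Col24a1 also lay above, but they entered the test only through cluster 5, so nothing is read from that. The share of all genes that separate in this way is not given here.

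Leaving out a line decided these calls. Col11a1 lost its call without Cspg4dsRED (adjusted p = 0.126), PdgfraGFP (0.217) or PdgfrbGFP (0.150), and Col24a1 lost it without C57BL6 (0.151), PdgfraGFP (0.217) or PdgfrbGFP (0.0987). The number of members called was then 0 to 1, in place of 2. Over these fits the log2 fold change kept its sign and ranged from 5.59 to 7.56 for Col11a1 and from 7.46 to 8.97 for Col24a1. Both genes entered the test only through the reads of cluster 5 and so had to differ, and their fitted folds give no size. These were the only calls by edgeR and by limma among the 9 members tested, while DESeq2 called Col5a3 and Col27a1 too (in edgeR 0.343% of 13988 genes were called higher and 0.879% in either direction), and since Col11a1 and Col24a1 had to differ, nothing is read from that count. The median change was 1.12 over the members tested (1.10 without these 2 genes) and -0.69 over all genes tested, and relative to that median gene Col1a1 was at 1.74, Col1a2 at 1.79 and Col3a1 at 1.27.

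Within cluster 5 the scarce chains were patchy. In cells thinned to 50000 reads, Col11a1 was found in 60.5% (95% interval 48.6 to 71.6) of cluster 5 cells, 2.59% (1.79 to 3.62) of other fibroblasts and 0% of mural cells (upper limit 2.91% by the same interval, or 2.4% by the limit of 3 counts). With all reads 1.6% of mural cells had a Col11a1 read. Col24a1 was found in 25% (15.8 to 36.3), 0.550% and 0, and Col27a1 in 23.7% (14.7 to 34.8), 2.59% and 12% (6.87 to 19.02). With all reads, 7 of 15 cluster 5 cells of C57BL6 had a Col11a1 read, 1 of 3 of Cspg4dsRED, 13 of 22 of PdgfraGFP and 28 of 36 of PdgfrbGFP. Outside cluster 5 most positive cells held few reads: 8.84% of other fibroblasts had a Col11a1 read and 0.704% had at least 10. By line that first share was 13.9% in PdgfrbGFP, 4.07% in C57BL6, 2.4% in PdgfraGFP, 0.855% in Acta2GFP and 0.741% in Cspg4dsRED. The median depth over all cells of a line was 280414 reads in PdgfrbGFP and 293659 in C57BL6, and between 120376 and 142832 in the others. The source of these reads was not tested. Of the 22 cluster 5 cells with Col24a1, 16 (72.7%) also had Col11a1, or 32.7% of the 49 cells with Col11a1, where 64.5% of all 76 cluster 5 cells had Col11a1. Col5a1 was found in 74 and Col5a2 in 76 of the 76 cells, the 49 with Col11a1 included. A cluster 5 cell had reads of 6 members in the median at the thinned depth, a cell of the other fibroblast clusters 5 and a mural cell 3.

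**Figure D3:**
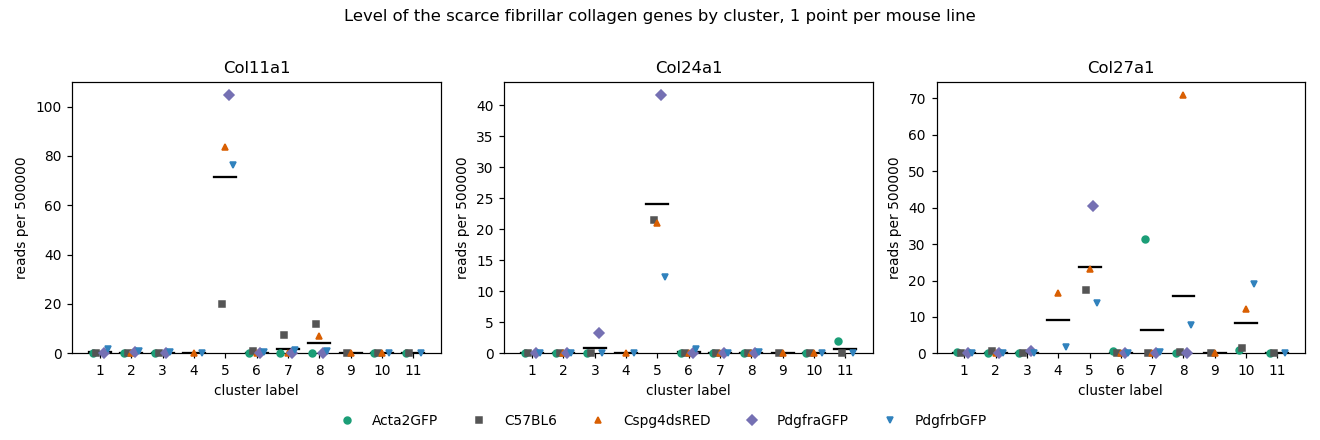
Mean level (reads per 500000 mouse reads of a cell, linear axes from 0) of Col11a1, Col24a1 and Col27a1 in clusters 1 to 11, with 1 point per mouse line and a bar at the mean. For Col11a1 the 4 lines of cluster 5 lie between 19.9 and 104.8, above every other cluster, whereas Col27a1 is also seen in some lines of clusters 4, 7, 8 and 10.

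Set directly against the mural cells, cluster 5 had more of every type I, III and V chain but Col5a3. The 3 lines with cells in both gave log2 fold changes of 4.26 ± 0.25 for Col1a1, 3.54 ± 0.26 for Col1a2, 3.19 ± 0.32 for Col3a1, 4.64 ± 1.08 for Col5a1 (adjusted p = 0.00134) and 3.38 ± 0.86 for Col5a2 (adjusted p = 0.00522), all called. For the type I and III chains the adjusted p was at most 2.29e-20, but the fit pooled the spread over all genes completely, so that such values say little about 3 lines. In total 5 of 9 members tested were called higher by edgeR, against 0.838% of 11701 genes called higher and 2.22% called either way, with medians of 3.54 over the members (3.38 without Col11a1 and Col24a1) and -0.11 over all genes. Without Cspg4dsRED or without PdgfrbGFP 3 members were called, Col1a1, Col1a2 and Col3a1. DESeq2 called 4 members, Col1a1, Col5a1, Col11a1 and Col24a1, and not Col1a2 (adjusted p = 0.105), Col3a1 (0.174) or Col5a2 (0.168). With limma Col5a1 was lost (0.0566) and Col11a1 and Col24a1 were called. Col5a3 (-3.86 ± 2.64) and Col27a1 (0.99 ± 3.06) were not called by any of the 3 tools. Col11a1 and Col24a1 had 2 and 3 reads in all mural cells and so had to differ, and their adjusted p in edgeR was 0.137 and 0.650. This comparison shares its cluster 5 and cluster 10 cells with the 2 comparisons above.

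Among the fibroblast clusters the order was shallow for the main chains. Mean Col1a1 levels ran from cluster 5 (7589.6) through clusters 6 (4986), 11 (4712), 1 (4682), 3 (4625), 2 (3405), 8 (3280.4), 9 (2975) and 7 (2968) to cluster 4 (1141), and only between clusters 7 and 4 did neighbours have ranges over lines that did not overlap. Col1a2 and Col3a1 had the same ends, with gaps between clusters 9 and 4. Cluster 4 held 508 and 1225 of Col1a2 and 465 and 1205 of Col3a1 in its 2 lines, Cspg4dsRED and PdgfrbGFP. Mean Col5a3 levels were in another order, from cluster 4 (107.9), cluster 9 (97.1), cluster 11 (45.6) and cluster 3 (44.3) down to clusters 1 (7.05) and 5 (5.50), and all neighbours had overlapping ranges over lines. These means rest on different sets of lines, 2 in clusters 4 and 9, 3 in cluster 11 and 4 or 5 in the others. Within PdgfrbGFP alone, Col5a3 was at 161.2 in cluster 4 (4 cells), 47.6 in cluster 6, 31.02 in cluster 8, 26.6 in cluster 3, 15.3 in cluster 11, 13.9 in cluster 7, 12.5 in cluster 2, 11.2 in cluster 1 and 10.5 in cluster 5.

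One F test over all fibroblast clusters, cluster 5 included, called 7 of 9 members tested at an adjusted p under 0.05, against 6.01% of 15237 genes. Col11a1 and Col24a1 have most of their reads in cluster 5 and had to differ here, so the count is a description. Called were Col1a1, Col1a2, Col3a1, Col5a2 (adjusted p = 0.0447), Col11a1, Col24a1 and Col27a1 (0.00633), and not Col5a1 (0.137) and Col5a3 (0.173), while limma called all 9 and DESeq2 called Col5a3 (0.0114) but not Col5a1 (0.0511). Without C57BL6 or without PdgfrbGFP 5 were called, Col5a2 and Col27a1 being lost. Col5a2 was also lost without Acta2GFP or PdgfraGFP.

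Cluster 5 apart, no member was called in a single cluster against the rest by the rule used here (adjusted p under 0.05 and a log2 fold change of at least 1 in size). Over the 9 contrasts 0 of 59 member tests were called by edgeR, DESeq2 or limma. An unadjusted p under 0.05 was found for 26 of 59 in edgeR, 24 in limma and 7 in DESeq2. The share of all genes at that unadjusted threshold is not given here, so nothing is read from these counts. Of all genes, 0.0284% were called in cluster 1, 0.198% in cluster 2 and 0.00688% in cluster 3. In cluster 4 the share was 0.746%, in cluster 6 0.0147% and in cluster 7 0.471%. It was 0.0217% in cluster 8, then 0.0454% (cluster 9) and 0.0303% (cluster 11). With shares this low, 0 of 59 in edgeR is near what all genes give, and it is not read as a result about the members. Col1a2 passed the adjusted p alone in cluster 1 (0.47 ± 0.05, adjusted p = 0.0266) and in cluster 7 (-0.51 ± 0.08, adjusted p = 0.0411). In cluster 4 the log2 fold change was -1.16 ± 0.35 for Col1a1, -1.28 ± 0.37 for Col1a2 (adjusted p = 0.0639) and -1.29 ± 0.38 for Col3a1, and Col5a3 was at 1.39 ± 0.97. Without the filter on low counts the 3 type I and III chains of cluster 4 were called. The median of all genes in these contrasts lay between -1.37 and -0.13, and with that median set at 0 there were 14 calls, of Col1a1, Col1a2 and Col3a1 in clusters 1, 2, 6 and 11 and of Col5a1 in clusters 6 and 11, all higher. Relative to the median gene the type I and III chains of cluster 4 were near 0 (-0.09, -0.21 and -0.22). The median gene of this contrast, at -1.07, rests on 2 lines and 21 cells of cluster 4. The lower values were seen with TMM scaling and also in the mean levels, which use no TMM scaling. For Col1a1 the mean was 1141 in cluster 4 and 3651 in the fibroblast clusters without cluster 5. For Col1a2 these means were 866 and 3133, and for Col3a1 835 and 2669.

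The ratio of 2 chains within a cell gives their relative amounts in cells that hold reads of both. It was taken as the log2 of the reads of a chain per exon kilobase over those of the other chain, in cells with at least 10 reads of both, as the median over the cells of a line. The Col1a1 to Col1a2 ratio was 1.15 ± 0.07 (SD, n = 5 lines) in fibroblasts, 1.08 ± 0.09 (n = 4) in cluster 5 and 0.62 ± 0.19 (n = 4) in cluster 10. On this scale, which divides by all annotated exon bases, fibroblasts had 2.22 times as much Col1a1 as Col1a2. Dividing by the longest transcript in place of all exons gave 1.06, because the exons of Col1a2 span 12426 bases in all and its longest transcript 5348 bases, so the level of the ratio depends on the length chosen and its difference between classes does not.

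In mural cells the Col1a1 to Col1a2 ratio was 0.69 in Acta2GFP, 0.34 in C57BL6, 0.68 in Cspg4dsRED and 0.76 in PdgfrbGFP, and in the fibroblasts of these lines 1.17, 1.15, 1.10 and 1.25. The mural values rest on the cells with enough reads of both chains, 11 of 12, 3 of 3, 14 of 65 and 34 of 45 cells in the same order of lines. It was lower in 4 of 4 lines, by 0.55 ± 0.18 (SD; exact sign-flip permutation test, two-sided, p = 0.125, which is the smallest p that 4 lines allow). Restricted to cells with both chains under 0.2 reads per exon base, the difference was -0.44 ± 0.09, and in cells thinned to 50000 reads it was -0.34 ± 0.26 in 3 lines. In cluster 5 the ratio was 1.05, 1.00, 1.06 and 1.21 against 1.16, 1.10, 1.09 and 1.25, a difference of -0.07 ± 0.04 (exact p = 0.125), lower in 4 of 4 lines. From summed reads it was -0.05 ± 0.07, lower in 3 of 4 lines (exact p = 0.375).

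Col3a1 lagged behind Col1a1 in cluster 5. The Col3a1 to Col1a1 ratio was -1.38 in C57BL6, -1.48 in Cspg4dsRED, -1.91 in the PdgfraGFP line and -1.41 in the PdgfrbGFP line, and -1.04, -0.86, -1.17 and -1.17 in the other fibroblasts of these lines. The difference of -0.49 ± 0.24 had the same sign in 4 of 4 lines (exact p = 0.125, again the smallest possible), and the classes did not overlap. The share of Col3a1 in the summed level of the members per kilobase of the longest transcript was 20.6% ± 1.8 in cluster 5 and 27.5% ± 1.5 in the other fibroblasts. In cluster 10 the difference was -0.32 ± 0.33 over 3 lines (exact p = 0.5), lower in 2 of them. It was -0.20 without Cspg4dsRED, -0.51 without PdgfrbGFP and 0.40 from summed reads over 4 lines. The Col5a2 to Col5a1 ratio was 0.42 ± 0.65 in cluster 5 and 0.00 ± 0.35 elsewhere in the same lines (difference 0.42 ± 0.44, exact p = 0.125, but -0.04 from summed reads). Without Cspg4dsRED, which has 3 cells in cluster 5, that difference was 0.22 ± 0.26, and with at least 3 reads of both chains it was 0.24 ± 0.38, higher in 3 of 4 lines (exact p = 0.375). The Col5a1 to Col1a1 ratio was -4.33 ± 0.50 and -4.24 ± 0.41 (difference -0.09 ± 0.22, exact p = 0.625), and in thinned cells the difference was -0.39 ± 0.36, lower in 3 of 4 lines (exact p = 0.25). Without PdgfraGFP it was 0.0039. Too few mural cells had 10 reads of both chains for these ratios.

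**Figure D4:**
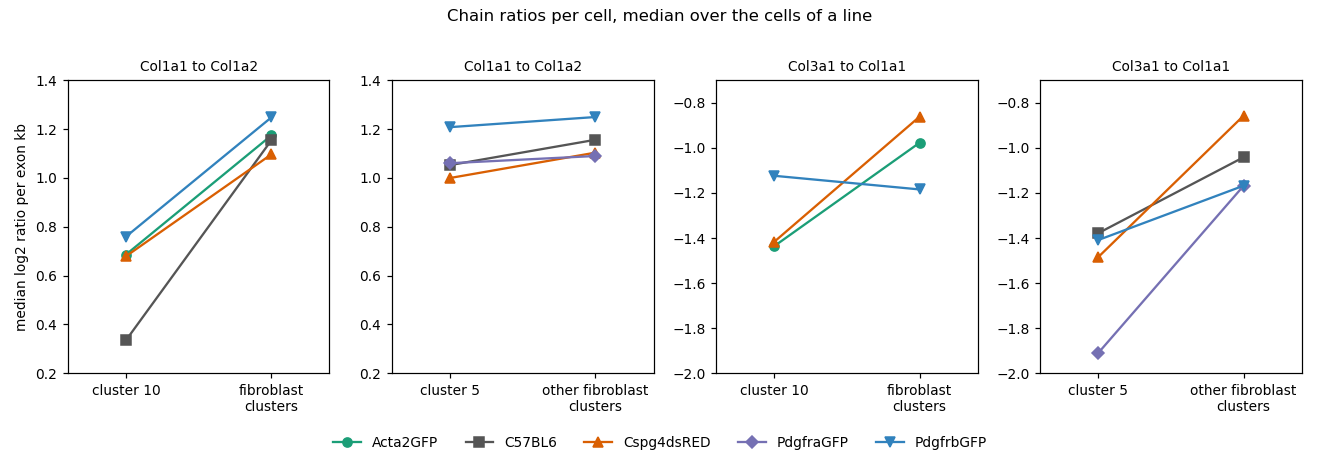
Median log2 ratio of 2 chains per exon kilobase in cells of each mouse line, with a line joining the 2 classes of the same mouse line; the vertical axes do not start at 0. The Col1a1 to Col1a2 ratio is lower in cluster 10 in 4 of 4 lines, and the Col3a1 to Col1a1 ratio is lower in cluster 5 in 4 of 4 lines.

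The ratios also varied between the cells of a class. In the other fibroblasts the SD between cells of the log2 Col1a1 to Col1a2 ratio was 0.56, with a median counting error of 0.06 per cell. For Col3a1 to Col1a1 the SD was 0.69 and the counting error 0.06. For Col5a2 to Col5a1 the SD was 1.69 with a counting error of 0.21. The type V chains have far fewer reads, and reads are not separate molecules in this protocol, which counts no molecular identifiers, so the counting error is a lower limit and the SDs cannot be compared between pairs.

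The most abundant chains reached about 1 read per base of the longest transcript in single cells. The highest cell held 1.26 reads per base of the longest transcript for Col1a1, 1.24 for Col1a2 and 1.04 for Col3a1, against 0.216 for Col5a2 and 0.141 for Col5a1. Per base of all annotated exons these cells held 1.14 for Col1a1, 0.535 for Col1a2 and 0.589 for Col3a1. Over 0.5 reads per base of the longest transcript were 18.6% of cells for Col1a1, 14.5% for Col1a2 and 8.38% for Col3a1, and no cell for the type V chains. Across cells of a line and cluster, the slope of log2 reads on log2 depth had a median of 0.88 for Col1a1, 0.96 for Col1a2 and 0.97 for Col3a1 (16 groups) and of 1.07 for Col5a1 and 1.36 for Col5a2 (11 groups), where proportional counting gives 1. The groups ranged from 0.63 to 1.61 for Col1a1, from 0.65 to 1.76 for Col1a2, from 0.62 to 1.72 for Col3a1, from 0.65 to 1.47 for Col5a1 and from 0.38 to 2.33 for Col5a2, so that all ranges span 1.

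In PdgfrbGFP cells of cluster 7, the mean Col1a1 level split by depth into 3 equal parts, went from 3349.9 in the shallowest cells (median 112281 reads) to 2859 in the middle and 2448 in the deepest (median 484506). Col3a1 went from 1824 through 1871 to 1691, and Col5a2 from 146.7 through 185.9 to 198.5. The deepest cells were lower than the shallowest for Col1a1 and higher for Col5a2 in the 4 clusters examined. The Col1a1 to Col1a2 ratio in PdgfrbGFP other fibroblasts was 1.29, 1.25 and 1.21 from the shallowest to the deepest cells, and the Col3a1 to Col1a1 ratio -1.31, -1.21 and -1.07. The part of depth in the ratio differences between classes was not tested. In thinned cells the Col3a1 to Col1a1 difference of cluster 5 was -0.44 ± 0.17, lower in 4 of 4 lines.

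**Figure D5:**
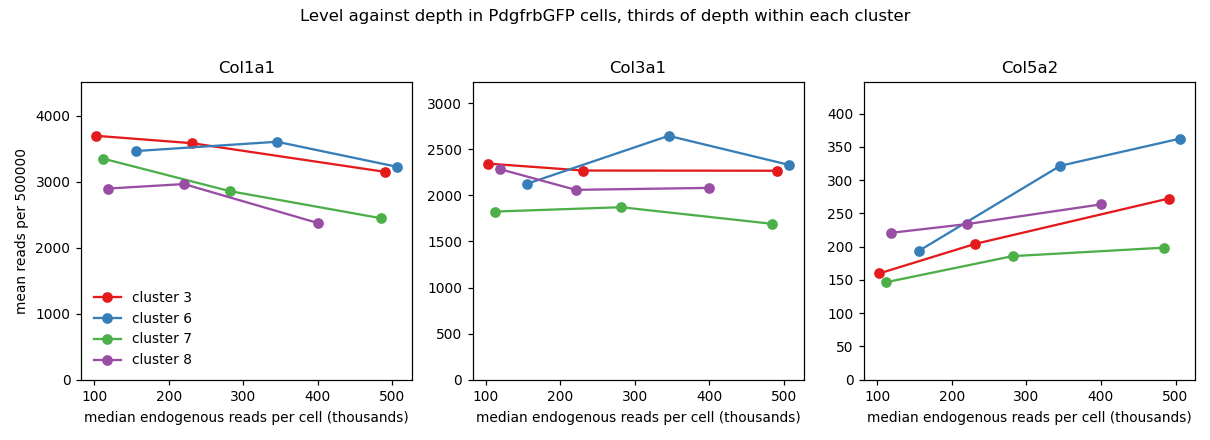
Mean level (reads per 500000 mouse reads of a cell) against median depth for PdgfrbGFP cells of 4 clusters, split by depth into 3 parts of equal size within each cluster. Col1a1 is lower in the deepest than in the shallowest part in all 4 clusters, and Col5a2 is higher.

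Across cells, the chains of type I collagen varied together most closely. Within groups of at least 20 cells of a line and cluster (17 groups, 1222 thinned cells), Pearson's r of log2 levels had a median of 0.73 for Col1a1 and Col1a2 (0.25 to 0.87), 0.60 for Col1a1 and Col3a1 and 0.51 for Col1a2 and Col3a1. Pairs with a type V chain had medians of 0.07 to 0.29. Col5a1 and Col5a2, which form heterotrimers, had a median of 0.13 (-0.25 to 0.35). The cells of a group share plate and background, the type V chains have few reads per cell, and these values are a description.

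Over the 43 line-and-cluster sums of all classes, Col1a1, Col1a2 and Col3a1 were closer to each other than to any gene outside the members: Pearson's r was 0.98 between Col1a1 and Col1a2, 0.97 between Col1a2 and Col3a1 and 0.95 between Col1a1 and Col3a1. It was 0.89 between Col1a1 and Col5a1, 0.84 between Col3a1 and Col5a2 and 0.64 between Col5a1 and Col5a2. With the 10 members left out of the ranking, the genes most like Col1a1 among 7674 others were Mmp2, a gelatinase (r = 0.94), Podn, a small leucine-rich proteoglycan (0.91), and Col6a2, a type VI collagen chain (0.89). Col1a2 had Col6a2 (0.91), Mmp2 (0.91) and Podn (0.87), Col3a1 had Col6a2 (0.92), Mmp2 (0.89) and Col6a1 (0.89), and Col5a1 had Mmp2 (0.86), Podn (0.85) and Vcan (0.83), which encodes versican. Outside the members, Col5a2 had Col6a1 (0.80), Pamr1 (0.73) and Bmp4 (0.73). Col5a3 had Wasl at 0.67, Nabp2 at 0.66 and Jade2 at 0.65. In the 39 sums of fibroblast clusters alone, r between members was 0.97 for Col1a1 and Col1a2, 0.93 for Col1a2 and Col3a1, 0.77 for Col1a1 and Col5a1 and 0.66 for Col3a1 and Col5a2, so that the type V chains were there no closer to the type I and III chains than to some outside genes. Mmp2 was at 0.77 for Col1a1 and 0.79 for Col1a2, and Col6a2 at 0.82 for Col3a1. There Col5a1 had Adam9 at 0.79, Col5a2 had Bmp4 at 0.72 and Col5a3 had Baiap2 and Eif2ak1, both at 0.72.

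Genes that process the chains were followed from 4 lists. In cluster 10, 5 of the 17 genes for folding and modifying procollagen were called lower and none higher, with a median of -2.32 over the list, where 6.06% of all genes were called lower, 8.34% either way and the median gene was at -0.81. Among them were Colgalt2, a collagen galactosyltransferase (-7.11 ± 1.85, with reads near 0 in mural cells), P3h3, of the prolyl 3-hydroxylase family (-5.18 ± 1.11), and Plod2, a lysyl hydroxylase (-3.80 ± 1.01, adjusted p = 0.028). Of the genes for propeptide removal 4 of 6 tested were called lower and none higher. Pcolce2, an enhancer of C-propeptide removal, was at -5.84 ± 0.86, Adamts2, the main N-propeptidase, at -4.64 ± 0.73 and Bmp1, the C-propeptidase, at -4.35 ± 0.94. In the cross-linking list 2 of 5 were lower, Loxl4 (-6.06 ± 1.55) and Loxl1 (-5.13 ± 0.69), both lysyl oxidase family enzymes. Colgalt2 (0.0317 reads per 500000 in cluster 10), Loxl4 (0.229) and the receptor gene Itga11 (0.671) had almost no mural reads, so they entered the test through the fibroblasts and had to come out lower, and their fitted folds give no size. Without them the calls lower were 4 folding genes and 1 cross-linking gene, and no receptor. Collagen receptors had 1 of 5 tested lower, Itga11 (-6.44 ± 1.49), the integrin chain of fibroblasts, and 1 higher, Itga1 (4.45 ± 0.90, adjusted p = 0.00386), with 107.04 ± 77.8 reads per 500000 in cluster 10 and 3.04 ± 1.94 in the fibroblast clusters.

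In cluster 5, where 0.879% of all genes were called, few genes of these lists were. None of the 17 folding genes and none of the 5 cross-linking genes was called by edgeR, with 3 and 2 at an unadjusted p under 0.05. No share of all genes is given at that unadjusted threshold, so nothing is read from the 3 and 2. Pcolce2 was lower by 6.46 ± 0.73 on the log2 scale (adjusted p = 0.002), at 3.82 ± 3.75 reads per 500000 against 176.9 ± 42.2 in the other fibroblasts. Itga11 was higher (3.64 ± 0.56, adjusted p = 0.0109), with 440.3 ± 325.9 against 30.3 ± 5.9. Against cluster 10, cluster 5 had more Itga11 (9.25 ± 1.46, with the same limit) and Loxl1 (3.51 ± 1.05). Among single fibroblast clusters, Loxl1 was lower in cluster 4 (-2.82 ± 0.64) and Plod2 in cluster 7 (-1.68 ± 0.24), and the F test called Pcolce, Pcolce2 and Itga11.

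The cartilage chains were almost without reads. Col2a1 had 40 reads in 3 cells, 22 in a C57BL6 mural cell, 16 in a PdgfrbGFP cell of cluster 3 and 2 in a PdgfrbGFP cell of cluster 8, and the cartilage genes Acan, Sox9, Comp, Matn1 and Col9a1 were at 0 in all 3. Col11a2 had 26 reads in 1 cell of cluster 3. Both missed the study's minimum for keeping a gene, which the other 9 members passed. Some members overlap other genes: Col3a1 shares exon bases with Gm47302 on the same strand, and Col5a1 shares exon bases with the antisense transcripts 2810430I11Rik and Gm13372, whose reads cannot be told apart here because the strand setting of the counting is not stated.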

How the data were processed

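Smart-seq2 libraries of single bladder cells were sequenced with single-end reads. The authors trimmed and mapped them to GRCm38 (mm10) with TopHat2 and Bowtie, removed what they call doublets with samtools, and deposited raw featureCounts counts per gene, with no molecular identifiers. They kept cells that passed limits on reads and genes and that had Pdgfra or Pdgfrb reads, and they assigned the clusters. The strand setting is not given in the sources used here.

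From these counts, 46517 gene rows were used and 92 spike-in rows were left out. A total of 46005 identifiers had a symbol. Levels are reads per 500000 mouse reads of a cell, averaged within a line and class with at least 3 cells and then over lines. For tests, counts were summed per line and class. Every gene was fitted with edgeR 4.0.16 (R 4.3.3; TMM scaling, low-count filter, quasi-likelihood test, line as a block) with Benjamini-Hochberg adjustment over all genes tested. A call asked for an adjusted p under 0.05 and a log2 fold change of at least 2, or 1 for single fibroblast clusters. Sums of the same line share mice and sort, and this is the pairing of the block. Shares of cells used cells thinned to 50000 reads, and 6 shallower cells were left out. Intervals and the limit for a count of 0 (3 counts) cover counting error only. Chain ratios used an exact sign-flip permutation test over lines.

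Named genes were all members, Col11a2, per list and comparison up to 3 called genes in each direction by size, and for each member with enough reads the 3 genes outside the members with the highest correlation. The members and lists were chosen with earlier results of these data known. The code was tested on simulated data. Alternatives used DESeq2 1.42.0, limma 3.58.1, other scalings and filters, sums per plate, thinned cells, no block, and each line left out, which for the mural percentages was chosen after seeing the data.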

Additional observations from a re-analysis of the deposited data

Results flagged for a closer look

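Of 79 groups of 4 or 5 lines, 9 (11.4%) held a line that stood apart from the others in a member's level; chance gives about 1 in 20. All levels are reads per 500000 mouse reads of a cell. In cluster 10 the C57BL6 line, which has 3 mural cells, stood at 292.9 for Col5a2 (others 15.5 to 26.8) and at 144.4 for Col5a3 (others 0.171 to 19.2). Col11a1 in C57BL6 was at 7.31 in cluster 7 (others 0 to 1.16) and at 2.91 in the other fibroblasts as a whole (others 0.0393 to 0.839). Cspg4dsRED was at 71.03 for Col27a1 in cluster 8 (others 0 to 7.84) and at 9.58 in the other fibroblasts (others 0.112 to 2.51). The same line was low for Col5a1 in cluster 7, at 55.99 (others 134.4 to 165.6), and for Col5a2 in cluster 6, at 62.2 (others 293.2 to 350.7). Col5a1 in cluster 2 was at 415 in PdgfraGFP (others 58.9 to 141.3). The cause of these values was not tested.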

How the results depend on the processing

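Lines as the replicate, few cells in some of them, and clusters drawn from the same counts limit what these tests can show, and depth limits the scarce chains. In cluster 10, 5 members were called with each line left out. In cluster 5 the count of 2 was 4 with DESeq2, 1 with at least 10 cells per line, 5 by the adjusted p alone and 0 to 1 with a line left out, and between clusters 5 and 10 it was 3 to 5 with a line left out. Over single fibroblast clusters there were 14 calls with the median gene at 0, 3 with no filter on low counts and 2 by the adjusted p alone. Without the pairing of lines (no replicate block) 4 members were called in cluster 10, 2 in cluster 5, 5 between clusters 5 and 10, 0 in single clusters and 6 in the F test. The sign turned for Col5a3 in cluster 10 with no replicate block (0.032), and for Col27a1 in cluster 10 with sums per plate (-0.68) or with a line left out (-0.40 to 1.42) and between clusters 5 and 10 with a line left out (-0.25 to 1.93). From summed reads the ratio differences turned to 0.40 for Col3a1 to Col1a1 in cluster 10, to -0.035 for Col5a2 to Col5a1 in cluster 5 and to 0.10 for Col5a1 to Col1a1 in cluster 5. The last was -0.39 in thinned cells, 0.24 with at least 3 reads of both chains and -0.16 to 0.0039 with a line left out. Without thinning, the shares of cells were 38.4% for Col5a1 and 46.4% for Col5a2 in cluster 10, and 91.002% and 92.9% in the other fibroblasts. For Col5a3 they were 36.8% in cluster 5, 24% in cluster 10 and 48.7% in the other fibroblasts, which had 8.84% for Col11a1, 1.72% for Col24a1 and 7.98% for Col27a1. The share of all genes called moved too. In cluster 10 it was 8.34%, against 20.9% with DESeq2 and 3.09% without Cspg4dsRED. In cluster 5 it was 0.879%, against 9.64% with DESeq2, 3.37% with limma, 2.43% with no replicate block, 4.52% with sums per plate, 2.09% with thinned cells, 1.33% with at least 10 cells per line and 0.697% of a longer list with no filter. Between clusters 5 and 10 it was 2.22%, against 6.11% with DESeq2, 4.2% with limma, 4.46% with sums per plate and 1.11% without Cspg4dsRED. Over the single clusters 0.173% became 4.31% with DESeq2, 0.878% with limma, 1.07% with the median gene at 0, 0.318% with no replicate block, 1.12% with sums per plate and 0.0999% with at least 10 cells per line. In the F test 6.01% became 9.06% with DESeq2, 9.26% with limma, 12.2% with no replicate block, 4.65% with thinned cells, 2.74% with at least 10 cells per line and 1.12% without PdgfrbGFP. Of 672 refits of single genes, 583 kept direction and side of the threshold. Of 50 ratio refits 45 kept their direction; none could pass 0.05, since 4 lines allow no p under 0.125. The cause of these changes was not tested. At least 10 cells per line gave no value for cluster 5 against cluster 10.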
